A study of Mus musculus with 12 samples.

Results

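The genes of H3K9 methylation and its readers described here are 9 of the 25091 genes and repeats quantified in mouse zygotes. They were chosen by symbol: the methyltransferase genes Suv39h1, Suv39h2, Setdb1, Ehmt1 and Ehmt2, the HP1 genes Cbx1, Cbx3 and Cbx5, and the corepressor gene Trim28. The estimated counts of their 22 RefSeq transcripts were summed by symbol in all 12 libraries. All 9 passed the filter on low counts in both experiments, although Ehmt2 was near the limit of detection throughout.

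The series asks what the RNA-decay factor LSM1 does in the mouse zygote, and it holds total RNA-seq after Lsm1 knockdown and RIP-seq (sequencing of RNA pulled down with a tagged protein) of LSM1. Per the labels, all libraries came from B6D2F1 females of 8 to 10 weeks that had been superovulated and mated, and the embryos were collected 18 to 20 h after the hCG injection. The methods give younger females and, for the oocytes injected with siRNA, maturation and fertilization in vitro. In the RNA-seq, Lsm1_KD zygotes received Lsm1 siRNA and Ctrl zygotes received scramble siRNA, with 2 libraries per group. In the RIP-seq, FLAG zygotes received mRNA of Lsm1 with a 3XFlag tag and the control zygotes are labelled as given untagged Lsm1 mRNA, and in each case 2 libraries came from the lysate before the pull-down (FLAG Input, Ctrl Input) and 2 from the anti-FLAG pull-down (FLAG IP, Ctrl IP). The knockdown is transient and acts through a single siRNA, embryos were pooled within a library, and the tagged protein was made from injected mRNA rather than from the endogenous gene. For the stage of injection the labels and the scheme of the study differ (zygote and GV oocyte), IgG stands in the titles of the control RIP libraries, and the RIP methods describe lysis of oocytes where the labels name zygotes. The study calls the replicates independent but its labels do not say how, and p-values measure only the spread between these libraries.

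The RNA-seq libraries summed to between 4636492 and 13968315 estimated counts and the RIP-seq libraries to between 9865512 and 31586450. FLAG IP replicate 1 stood apart before any gene was compared. Repeats held 12.7% of its counts against at most 2.63% in the other 11 libraries, and across genes its Pearson correlation with the other RIP libraries was 0.74 to 0.85, where the rest correlated at 0.94 or more with each other. SE stands for the standard error of a log2 fold change. Lsm1 itself had normalized counts of 63.6 and 71.0 CPM in Lsm1_KD and 143 and 147 CPM in Ctrl, which is -1.10 on the log2 scale (SE 0.22, adjusted p = 0.012, edgeR's quasi-likelihood test with Benjamini-Hochberg adjustment). In the RIP-seq it was at 10838 and 16749 CPM in FLAG Input but at 18.3 and 18.4 CPM in Ctrl Input. The controls therefore held no excess of the Lsm1 mRNA that their labels name. In FLAG IP, Lsm1 was at 5993 CPM in replicate 1, below its input, and at 139288 CPM in replicate 2, above it. The 2 FLAG pull-downs thus differed in this RNA too. Markers of the oocyte and zygote were at 1 TPM or more for 10 of 10 genes in every library (summed 1493 to 10014 TPM). Those of granulosa and cumulus cells summed to 4.64 to 16.9 TPM. Of these 8 genes, 7 were at 1 TPM or more in FLAG IP replicate 1 and 1 or 2 in the other 11 libraries.

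Methylation of lysine 9 of histone H3 is the mark that separates the parental pronuclei of the zygote, where the maternal chromatin carries it and the paternal chromatin largely lacks it. SUV39H1 and SUV39H2 place the trimethyl mark on pericentromeric heterochromatin, SETDB1 places it at retrotransposons and imprinted loci when recruited by TRIM28 (KAP1) through zinc-finger proteins, and the partners EHMT1 (GLP) and EHMT2 (G9a) place the dimethyl mark in euchromatin. The HP1 proteins encoded by Cbx5 (HP1α), Cbx1 (HP1β) and Cbx3 (HP1γ) bind the methylated lysine through a chromodomain and in turn bind SUV39H enzymes. In the early zygote most RNA is maternal, so the level of an RNA depends largely on its storage and decay.

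The sequence that defines the knockdown is shown first, so that it can be set against the RNAs of the members. Its sense strand lies in the coding sequence of Lsm1 and joins exons 2 and 3 of 4 (GRCm38, plus strand, chr8:25792216-25793685 with the intron between them). The capitals mark the site that pairs with the seed (bases 2 to 8) of the guide strand.
Lsm1 siRNA: gatcaatttgcTAACTTAg
The letters TAACTTA were searched on the RNA strand of the quantified RefSeq transcripts, built from GRCm38. They were found in 0 of the 22 transcripts of the 9 genes, against 9.83% of 37038 transcripts in all. The absence of these letters says nothing of other ways in which an siRNA can act. The whole siRNA sequence matched 1 quantified transcript, that of Lsm1, and on the assembled chromosomes it had 1 further full match, on the minus strand at chrX:162895030-162895048, outside the quantified transcripts.

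A second set of designed sequences names members directly, the qPCR primers that the study lists for Suv39h2 and Cbx1, and they are shown because their letters decide which member an assay reads.
Suv39h2-F: gcgcaaggccaagaagaaatg
Suv39h2-R: cagtgaagacgtgtcattggagac
Cbx1-F: gtcaggccgagggtcact
Cbx1-R: acagtcagaaaagccacgaggc
The pair named Suv39h2 matched neither of the 2 quantified Suv39h2 transcripts. Both primers matched all 4 quantified Ehmt2 transcripts in full and no transcript of any other gene. The forward primer lies at chr17:34905359-34905379 and the reverse primer at chr17:34905912-34905935 (GRCm38), each within a coding exon of Ehmt2, and the pair spans 124 nt in 2 of the transcripts and 226 nt in the other 2. On the assembled chromosomes, each primer of this pair had 1 match, both in Ehmt2. The Cbx1 pair lies in its own gene but in the opposite orientation to its names: the primer called F is on the minus strand in an intron of the quantified transcript (chr11:96802955-96802972) and the primer called R on the plus strand across the edge of one of its exons (chr11:96802724-96802745). Neither matched that spliced transcript in full, the only one quantified for Cbx1. No qPCR value was used here, and Suv39h2 and Cbx1 are read below by the sequencing libraries alone. The study describes Suv39h2 and Hp1β (Cbx1) as rarely changed by the knockdown in its RNA-seq, shown as TPM. It reports both as not significant by qPCR.

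The 9 RNAs differed in level by more than 2 orders of magnitude. On the TPM scale, which is per transcript length and so allows genes to be compared, Ctrl zygotes held Trim28 (mean 210 TPM, range 155 to 266), Cbx1 (164, 137 to 192), Cbx3 (127, 73.2 to 181), Suv39h2 (109, 92.7 to 126) and Setdb1 (109, 106 to 111) as their most abundant members. The ranges of neighbours among these 5 overlapped, so the order of adjacent genes is not resolved by 2 libraries. The ranges of Trim28 and Cbx1 lay above those of Suv39h2 and Setdb1. Ehmt1 followed at 34.6 TPM, then Suv39h1 at 10.2, Cbx5 at 5.94 and Ehmt2 at 0.849, and none of these 4 overlapped its neighbours in the order. Within each enzyme pair the levels were therefore unequal: the Suv39h2 range lay above that of Suv39h1 in Ctrl, and Ehmt1 lay above Ehmt2.

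Ehmt2 was the member at the limit of detection, with levels under 2 TPM in 12 of 12 libraries, while the other 8 genes were at 1 TPM or more everywhere. It had 6 and 9 estimated counts in Lsm1_KD, 39 and 0 in Ctrl, and 23 to 55 in the RIP-seq. The 0 in Ctrl replicate 2 allows up to 0.412 CPM (3 counts in that library), a limit that covers counting error only. Of its 4 quantified transcripts, 1 (NM_147151) was above 0 in 11 libraries, and the rest were above 0 in at most 2.

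**Figure D1:**
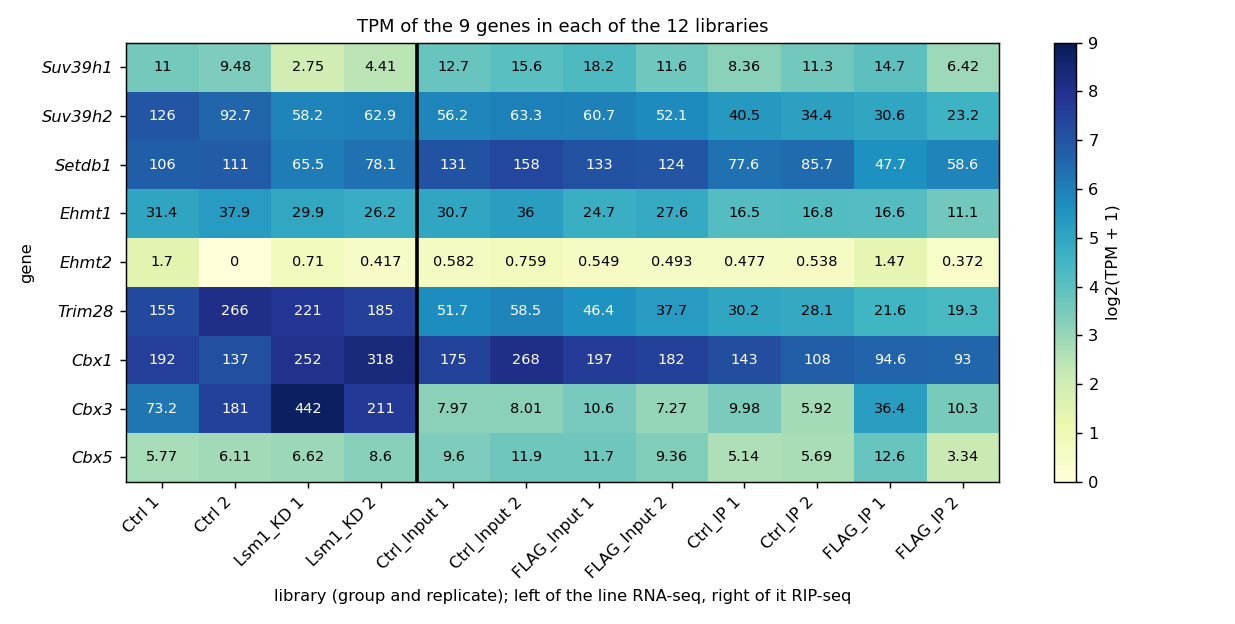
TPM of the 9 genes (rows) in each of the 12 libraries (columns, group and replicate), coloured by log2(TPM + 1) and printed in each cell. Cbx1 and Setdb1 are high throughout, Ehmt2 stays under 2 TPM, and Cbx3 is at 73.2 to 442 TPM in the RNA-seq against 5.92 to 36.4 TPM in the RIP-seq.

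In the RIP-seq libraries Cbx1 was the most abundant member in 8 of 8, with 175 and 268 TPM in Ctrl Input and 197 and 182 TPM in FLAG Input. Setdb1 came next in each RIP group (144 TPM on average in Ctrl Input, 129 in FLAG Input), and its range lay below that of Cbx1 in all 4. The rank of Cbx3 differed most between the experiments. Its mean level in Ctrl was 15.9 times that in Ctrl Input (127 and 7.99 TPM). Trim28 followed at 3.82 times, whereas the other 7 genes had ratios of 0.553 to 1.83. A wide gap was not particular to Cbx3, since Lsm1, not a member, was at 150 TPM in Ctrl and 9.82 TPM in Ctrl Input. Per the labels, the experiments used different library kits (KAPA Stranded with RiboErase, and SMARTer Stranded) and different injections, whereas the methods describe amplified cDNA and a KAPA HyperPlus kit for the RNA-seq, so it is not settled how those libraries were made. The parts of library preparation and injection in these ratios cannot be told apart, and levels were not tested between the experiments.

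Knockdown of Lsm1 was compared with scramble siRNA to ask whether the RNAs of H3K9 writers and readers change. Of the 3 HP1 genes, Cbx1 and Cbx3 rose past the threshold, and Cbx5 did not pass it. Of the 5 methyltransferase genes 0 passed, with log2 fold changes from -1.19 (Suv39h1) to -0.04 (Ehmt1). Ehmt1 changed sign without Ctrl replicate 2 (0.11) or Lsm1_KD replicate 2 (0.01), and Ehmt2 with a replicate block (0.85). In all, 2 of 9 members were called at an adjusted p under 0.05 (edgeR's quasi-likelihood test, adjusted over all 11335 genes and repeats tested), both higher and both past a log2 fold change of 1, against 11.0% of all features in either direction, 6.45% called higher, 4.56% called lower and 8.15% called past that fold. The median log2 fold change of the members was -0.04, beside 0.01 over all features tested. In bulk libraries fewer cells of a type and less RNA per cell cannot be told apart. These were pools of zygotes, with granulosa and cumulus markers at 10.3 to 16.1 TPM in sum in the RNA-seq.

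Cbx1, the gene of HP1β (chromosome 11, 96788680 to 96808982 of GRCm38), had normalized counts of 144 and 192 CPM in Lsm1_KD and 90.1 and 67.8 CPM in Ctrl. Both knockdown libraries were above both controls. The log2 fold change was 1.09 (SE 0.24, adjusted p = 0.020 in edgeR), a 2.13-fold rise from 78.9 ± 15.8 to 168 ± 33.5 CPM (SD, n = 2). The call held in 8 of 12 alternative settings, of which 1, with the replicate numbers crossed between the groups, was chosen after seeing the data. That setting gave the lowest adjusted p (2.6e-05 in edgeR), and the lowest of the planned settings was 0.00079 (edgeR with no low-count filter). The call was lost with a replicate block and in limma on log2(TPM + 1) (log2 0.80, adjusted p = 0.066). It was also lost without Lsm1_KD replicate 2 (log2 0.86) and without Ctrl replicate 2 (log2 0.88).

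Cbx3, the gene of HP1γ (chromosome 6, 51470154 to 51483704), was at 376 and 190 CPM in Lsm1_KD and at 51.1 and 133 CPM in Ctrl. The groups did not overlap, but the gap between their nearest libraries was smaller than the difference within either group. Its log2 fold change was 1.62 (SE 0.42, adjusted p = 0.036 in edgeR), the largest among the 9 genes. The call held in 8 of 12 settings, of which the crossed replicate numbers were again chosen after seeing the data. That setting gave the lowest adjusted p (1.7e-09 in edgeR), and the lowest of the planned settings was 2.6e-09 (edgeR with no low-count filter). The call was lost with a replicate block, in DESeq2 (adjusted p = 0.15), in limma on log2(TPM + 1) (adjusted p = 0.096) and without Lsm1_KD replicate 1 (log2 1.03). Without Ctrl replicate 1 the log2 fold change was 1.07 and without Ctrl replicate 2 it was 2.44.

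The annotation holds 6 Cbx3 pseudogenes, none of them quantified as a feature, so reads from near-identical copies could have been counted to Cbx3, whose values are uncertain to that extent. The start of Cbx3 lies 105 bases from the divergent gene Hnrnpa2b1, an RNA-binding protein gene, which was at 350 and 453 CPM in Lsm1_KD and 112 and 120 CPM in Ctrl (log2 fold change 1.79, adjusted p = 0.0014 in edgeR). The genes do not overlap. In Ctrl Input, from the other experiment, Hnrnpa2b1 was at 122 and 167 TPM and Cbx3 at 7.97 and 8.01 TPM. Whether the neighbour has a part in the Cbx3 values was not tested.

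Cbx5, the gene of HP1α (chromosome 15, 103191546 to 103239904), was at 30.0 and 41.3 CPM in Lsm1_KD and at 21.7 and 23.8 CPM in Ctrl. The groups again did not overlap, but the log2 fold change of 0.65 (SE 0.31) missed the threshold in edgeR (adjusted p = 0.20). In all, 3 of 9 members were higher in both knockdown libraries than in both controls, the HP1 genes, against 29.3% of all features tested, a share near that of the members.

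Another 3 members were lower in both knockdown libraries, likewise near the 28.6% of all features. They were the methyltransferase genes Suv39h1, Suv39h2 and Setdb1. Suv39h2 (chromosome 2, 3455815 to 3474986), whose enzyme methylates pericentromeric heterochromatin, was at 125 and 143 CPM in Lsm1_KD and 222 and 171 CPM in Ctrl, with a log2 fold change of -0.55 (SE 0.22, adjusted p = 0.13 in edgeR). Its paralogue Suv39h1 (chromosome X, 8061171 to 8074760) was at 4.23 and 7.17 CPM against 13.9 and 12.5 CPM, with a log2 fold change of -1.19 (SE 0.49, adjusted p = 0.15), and rests on 19 and 78 counts in Lsm1_KD. Setdb1 (chromosome 3, 95323525 to 95357202) was at 153 and 193 CPM against 204 and 224 CPM, with a log2 fold change of -0.30 (SE 0.21, adjusted p = 0.38). These 3 differences did not pass the threshold.

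The remaining 3 genes overlapped between the groups. Ehmt1 (chromosome 2, 24790769 to 24919643) was at 75.2 and 69.5 CPM in Lsm1_KD and 66.1 and 82.8 CPM in Ctrl, with a log2 fold change of -0.04 (SE 0.24, adjusted p = 0.94 in edgeR). Trim28 (chromosome 7, 13024152 to 13031032), which links SETDB1 to DNA-bound zinc-finger proteins, was at 355 and 314 CPM against 205 and 368 CPM, with a log2 fold change of 0.22 (SE 0.26, adjusted p = 0.64). Its Ctrl libraries differed more from each other than its knockdown libraries did. Ehmt2 (chromosome 17, 34898463 to 34914073) was at 1.34 and 0.827 CPM against 2.63 and 0 CPM, too few counts for its log2 fold change of -0.37 (SE 1.46, adjusted p = 0.90) to be read as a size.

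**Figure D2:**
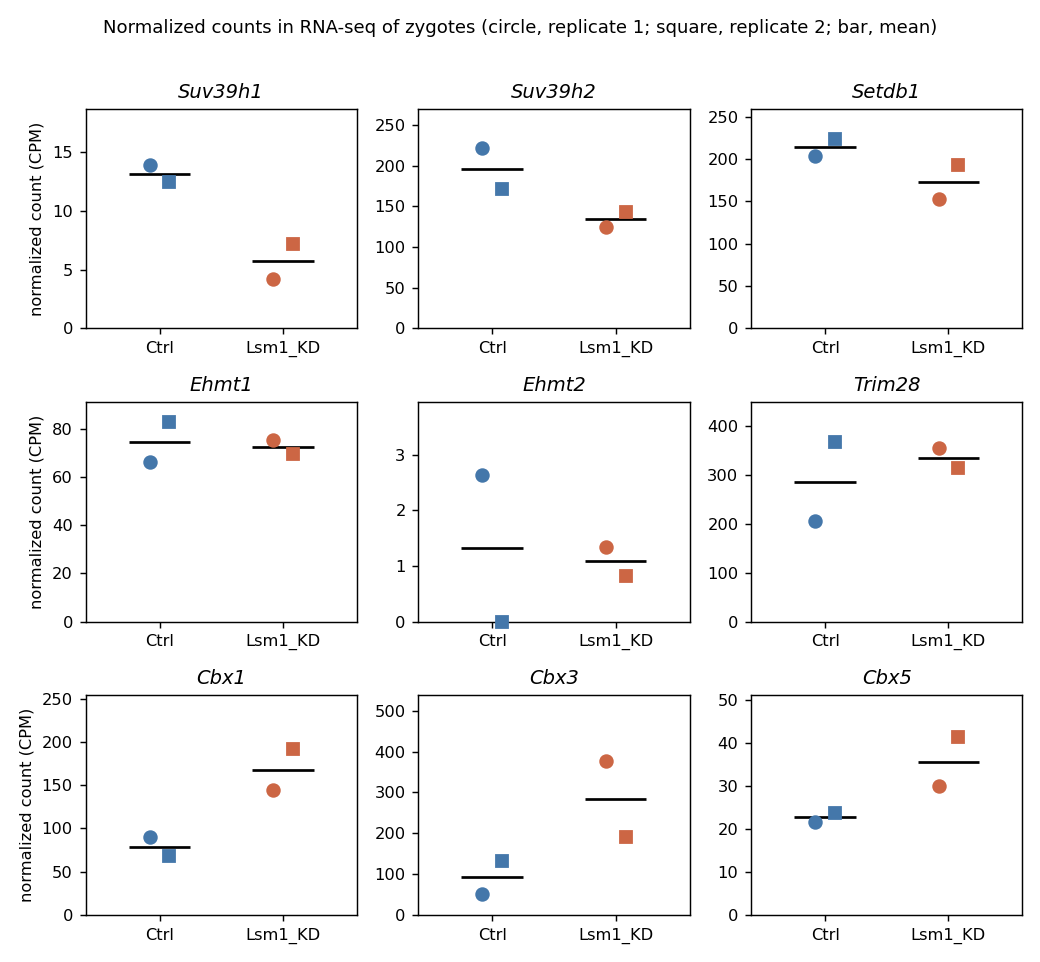
Normalized counts (CPM, axis from 0) of the 9 genes in the 2 Ctrl and 2 Lsm1_KD libraries, with circles for replicate 1, squares for replicate 2 and bars for group means. Cbx1, Cbx3 and Cbx5 lie higher in both Lsm1_KD libraries and Suv39h1, Suv39h2 and Setdb1 lower, while Ehmt1, Ehmt2 and Trim28 overlap between the groups.

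Single transcripts gave no further call. Of the 22 transcripts, 16 were tested as features of their own and 0 passed in edgeR, as did 0 of all 14580 (2775 at an unadjusted p under 0.05). Cbx1 and Trim28 have 1 quantified transcript each, and in the RNA-seq all counts of Cbx3 fell on NM_007624, so these genes are read by a single model. For Ehmt1, the transcript NM_172545 took 7.95% and 0% of the gene's TPM in Lsm1_KD and 35.5% and 45.4% in Ctrl, whereas NM_001109686 took 59.0% and 68.3% against 39.2% and 29.1%. For Suv39h1, NM_001290716 took 71.8% and 31.7% in Lsm1_KD and 98.6% and 70.1% in Ctrl. Both groups of shares stand apart for Ehmt1, but the shares depend on how reads were divided among them, and neither Ehmt1 transcript passed (adjusted p = 0.45 and 0.21 in edgeR).

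The other genes of H3K9 methylation were read in the same fit of the knockdown. Among writers and writer partners, 14 of 15 genes were tested, 1 rose and 1 fell (against 6.45% and 4.56% of all features), and the median log2 fold change was 0.31. The gene that rose was Mphosph8, which encodes a chromodomain subunit of the HUSH complex that recruits SETDB1, with 2450 and 3025 CPM in Lsm1_KD and 1389 and 1131 CPM in Ctrl (log2 fold change 1.12, SE 0.20, adjusted p = 0.0086 in edgeR). The gene that fell was Zfp644, which encodes a zinc-finger partner of EHMT1 and EHMT2, with 15.8 and 11.9 CPM against 34.3 and 41.5 CPM (log2 fold change -1.46, SE 0.33, adjusted p = 0.021).

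Of the HP1 partners and heterochromatin maintenance genes, 11 of 13 were tested and 0 were called in either direction, with a median of -0.03. The chromatin remodeller gene Atrx was at 934 and 1202 CPM in Lsm1_KD and 1946 and 1405 CPM in Ctrl, without overlap, but its log2 fold change of -0.65 did not pass (adjusted p = 0.086 in edgeR). Of the H3K9 demethylase genes, 9 of 11 were tested and 0 were called, with a median of 0.10. Markers of sperm summed to 28.1 and 39.9 TPM in Lsm1_KD and to 11.6 and 10.6 TPM in Ctrl, with 4 of the 6 (Prm1, Tnp1, Tnp2 and Odf1) at 0 in all 4 libraries, and the part of this difference in the values above was not tested.

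**Figure D3:**
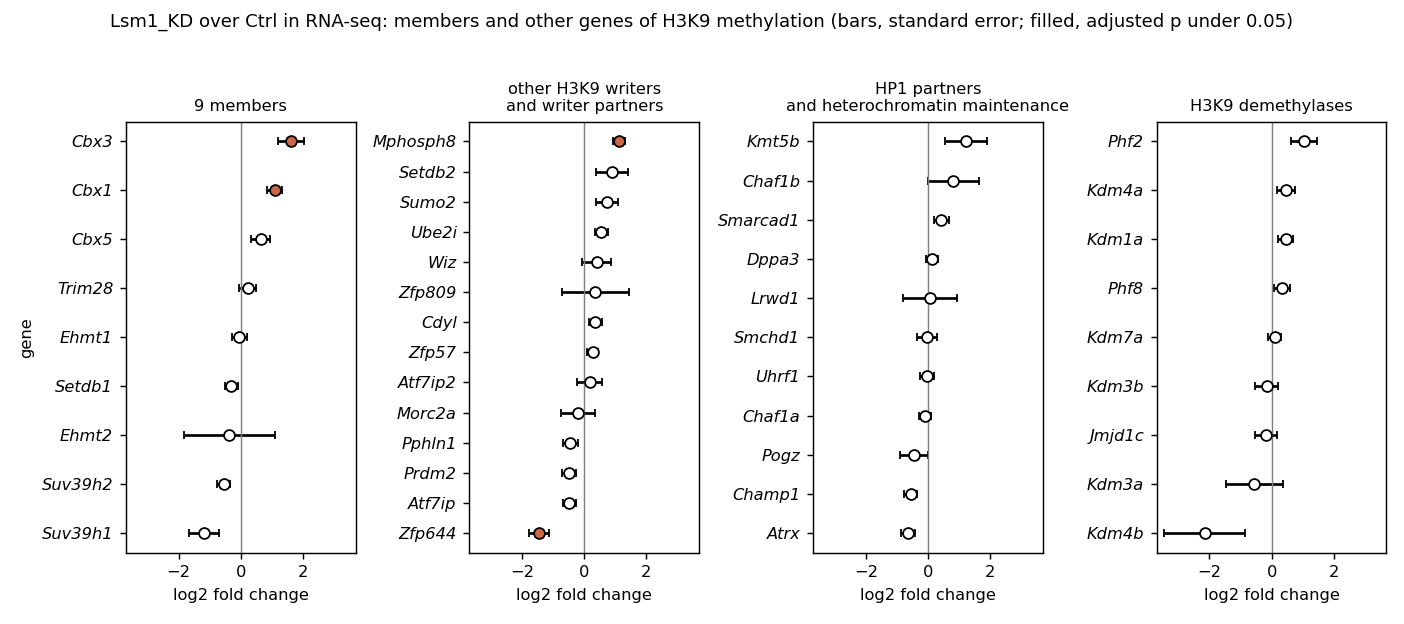
Log2 fold changes of Lsm1_KD over Ctrl with standard errors for the 9 genes and for 3 further lists of genes of H3K9 methylation, sorted within each list, filled where the adjusted p from edgeR is under 0.05. Cbx1, Cbx3 and Mphosph8 are filled to the right of 0 and Zfp644 to the left, and the demethylase and HP1 partner lists hold no filled point.

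The inputs of the RIP-seq were compared to see whether injection of the tagged Lsm1 mRNA moved these RNAs in the lysate. It was not seen to: 0 of 9 members were called in FLAG Input over Ctrl Input, as were 0 (0%) of all 18972 features by edgeR, of which 0.928% were at an unadjusted p under 0.05. DESeq2 and limma called 1 feature each, no member among them. The members' log2 fold changes ran from -0.34 (Trim28) to 0.20 (Cbx3). Cbx3 was at 14.2 and 11.4 CPM in FLAG Input and 12.1 and 10.2 CPM in Ctrl Input, which overlap, and Cbx1 at 176 and 191 CPM against 179 and 228 CPM.

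In this comparison 4 of 9 members (Setdb1, Ehmt1, Ehmt2 and Trim28) were lower in both FLAG Input libraries, against 15.9% of all features, and 0 were higher in both, against 18.3%. The largest of these 4 was Trim28, at 118 and 112 CPM in FLAG Input and 149 and 142 CPM in Ctrl Input, a log2 difference of -0.34 (SE 0.44) whose adjusted p was 1.0 in edgeR. The fit shares its estimate of the spread with the pull-down libraries, and the standard error of each member (0.31 to 0.75) was larger than its difference, so differences of this size were not detectable here.

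The pull-down was compared with its own lysate to ask which RNAs were recovered with LSM1. Of the 9 members 1 was called, Cbx3, higher in FLAG IP, against 26.4% of all features called in either direction, 21.0% called higher and 5.48% called lower. Cbx3 was at 30.7 and 24.0 CPM in FLAG IP and 14.2 and 11.4 CPM in FLAG Input, without overlap. Its CPM ratio to the same lysate was 1.11 and 1.07 on the log2 scale in the 2 replicates. In TPM the replicates were less alike, with 36.4 against 10.6 in replicate 1 and 10.3 against 7.27 in replicate 2. On that scale FLAG IP and FLAG Input overlapped. The log2 fold change was 1.10 (SE 0.36, adjusted p = 0.042 in edgeR). It stood at percentile 56.7 of all features tested, whose median was 0.49.

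The call on Cbx3 was marginal. It held in 6 of 15 alternative settings (adjusted p 0.0048 to 0.57), with a log2 fold change of 0.26 (adjusted p = 0.57) when the dependence on transcript length was removed from each library, and of 0.87 (adjusted p = 0.084) without FLAG IP replicate 1. In the control pull-down Cbx3 was at 20.2 and 12.3 CPM in Ctrl IP against 12.1 and 10.2 CPM in Ctrl Input, which is a log2 fold change of 0.54 (SE 0.35, adjusted p = 0.51). The ratio of the FLAG enrichment to the control enrichment was 0.56 on the log2 scale (SE 0.50, adjusted p = 0.80 in edgeR).

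In CPM another 7 members were lower in both FLAG IP than in both FLAG Input libraries, against 30.2% of all features. On the same scale 2 (Ehmt2 and Cbx3) were higher in both, against 42.1%. The 7 had log2 fold changes from -1.11 (Setdb1) to -0.67 (Suv39h1), and 0 of them passed in edgeR (adjusted p 0.089 to 0.18). Features with a mean of at least 10 CPM had a median log2 fold change of -0.70, so abundant RNAs were in general lower in FLAG IP, where repeats and rare RNAs took a larger share. Setdb1 was at 110 and 368 CPM in FLAG IP and 494 and 537 CPM in FLAG Input. Trim28 was at 34.1 and 83.7 CPM in FLAG IP and 118 and 112 CPM in FLAG Input.

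For these genes the 2 pull-downs differed from each other in normalized CPM. Over its own lysate, Setdb1 had a log2 ratio of -2.17 in FLAG IP replicate 1 and -0.54 in replicate 2, Suv39h2 of -1.68 and -0.62, Cbx1 of -1.72 and -0.42, and Trim28 of -1.79 and -0.42. These ratios use TMM factors of 1.87 for FLAG IP replicate 1 and 0.872 for replicate 2. In TPM, which does not use them, Cbx1 was alike in both (94.6 against 197 in FLAG Input, and 93.0 against 182). Suv39h2 (30.6 against 60.7, and 23.2 against 52.1), Suv39h1 and Ehmt1 had their lower TPM ratio in replicate 2. Setdb1 kept its lower ratio in replicate 1 (47.7 against 133, and 58.6 against 124). In CPM, Cbx5 was at -0.58 in replicate 1 and -0.94 in replicate 2. In TPM it was not lower in both, with 12.6 against 11.7 in replicate 1 and 3.34 against 9.36 in replicate 2. Suv39h1 overlapped in TPM, with 14.7 and 6.42 in FLAG IP and 18.2 and 11.6 in FLAG Input. The rest of the 7 genes had their lower CPM ratio in replicate 1, the library with 12.7% of its counts in repeats. Without that replicate 2 members were called in edgeR, Suv39h2 (log2 -0.66, adjusted p = 0.034) and Cbx5 (log2 -1.03, adjusted p = 0.0098), both lower, against 9.48% of all features called lower in that fit. Without replicate 2 all members but Ehmt2 were called, 7 lower and Cbx3 higher, but there 28.5% of all features were called lower and 35.9% higher. The number of members called below their input therefore depended on which FLAG IP library was kept. It also differed between tests with all libraries kept. DESeq2 called Suv39h2 (log2 -1.08) and Ehmt1 (log2 -0.98) lower. Limma on log2(TPM + 1) called Suv39h2, Setdb1, Cbx1 and Trim28 lower.

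Set against the control pull-down, 0 of 9 members were called in FLAG IP over FLAG Input relative to Ctrl IP over Ctrl Input (adjusted p 0.79 to 0.94 in edgeR), as were 0 (0%) of all features, with 5.25% at an unadjusted p under 0.05. With lysate as a block 10 features were called, no member among them. DESeq2 called 2 features in this contrast and limma 0. In the control itself 0 of 9 were called in Ctrl IP over Ctrl Input, against 2.13% of all features (404, or 1454 with lysate as a block), and their log2 fold changes lay between -0.46 (Ehmt1) and 0.54 (Cbx3), with 4 lower and 1 higher without overlap, against 27.2% and 33.4% of all features. Without FLAG IP replicate 1 the log2 ratios of FLAG to control enrichment lay between -0.56 (Suv39h1) and 0.38 (Cbx3) and 0 members were called, against 0.00527% of all features. Without FLAG IP replicate 2, when 22.2% of all features were called lower, 5 members were, namely Suv39h2, Setdb1, Ehmt1, Cbx1 and Trim28.

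**Figure D4:**
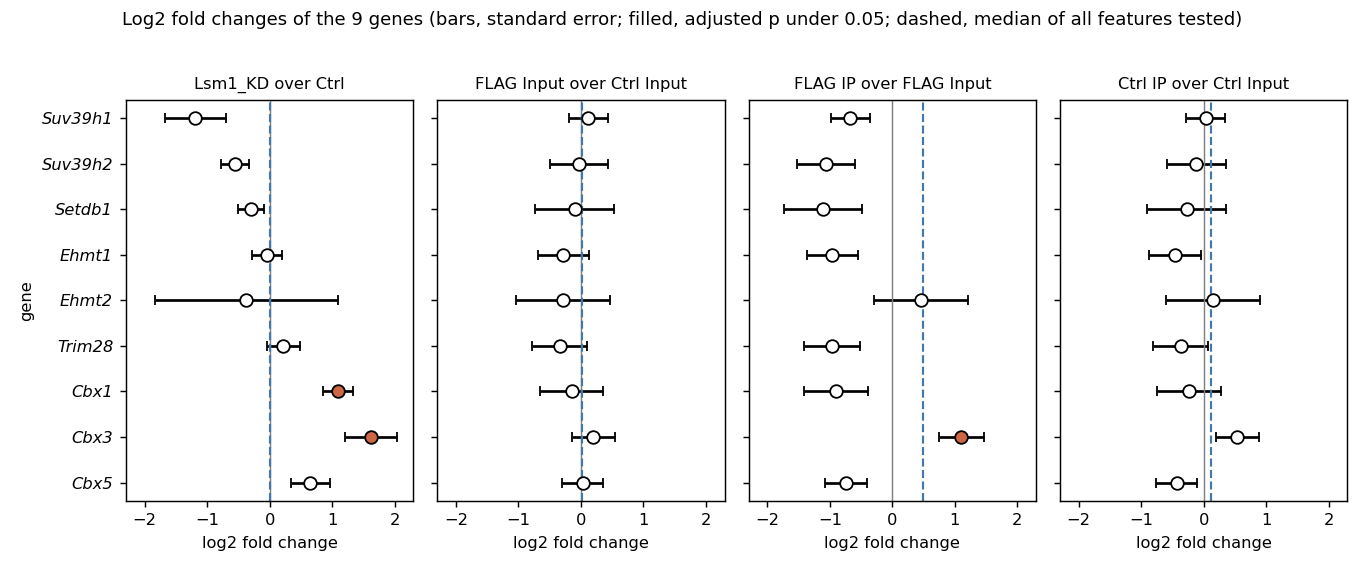
Log2 fold changes with standard errors of the 9 genes in 4 comparisons, filled where the adjusted p from edgeR is under 0.05, with the median of all features tested as a dashed line. Cbx1 and Cbx3 are filled in Lsm1_KD over Ctrl and Cbx3 in FLAG IP over FLAG Input, where 7 of the other genes lie left of 0.

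The lists of related genes were read in the pull-down as well, where 21.0% of all features were called higher and 5.48% lower. Of 14 writers and writer partners tested, 0 were called in FLAG IP over FLAG Input, with log2 fold changes from -1.35 to 0.77 (median -0.60). Of 13 HP1 partners and heterochromatin maintenance genes 2 were called higher, Adnp and Kmt5b, and the list ran from -1.47 to 2.74 (median -0.22). Of 11 demethylase genes 3 were called higher, Kdm3a, Kdm4c and Kdm4d, and the median of the list was 0.32. In FLAG Input, Kdm4c (0.850 and 1.06 CPM), Kdm4d (1.06 and 1.59 CPM) and Adnp (1.36 and 0.855 CPM) were rare. In the control pull-down over its own input 1 demethylase gene was called higher, against 2.13% of all features called in either direction, and the median of the list was 0.30. Relative to the control pull-down 0 genes of these lists were called.

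Across all 12 libraries, each gene's closest companion was the gene with the highest Pearson correlation of log2 CPM, centred within each experiment, among 6380 genes with a mean of at least 10 CPM in both. These were Ngly1 for Suv39h2 (r = 0.99), Ptpn21 for Setdb1 (0.99), Rbm17 for Cbx1 (0.99), Sart3 for Ehmt1 (0.98), Dusp23 for Cbx3 (0.98) and Trim71 for Trim28 (0.98). Lmbrd2 was closest to Suv39h1 (0.96), Elf2 to Cbx5 (0.95) and Tex11 to Ehmt2 (0.84), the lowest of the 9. The points share libraries and the best of many genes was taken, so the values describe these libraries and carry no test.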

How the data were processed

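Per the labels, the authors quantified trimmed reads with Salmon against mm10 transcripts, and the deposited tables, which hold RefSeq transcripts and repeats, give estimated counts and TPM values for each. Reads were trimmed with Trimmomatic per the labels, or Cutadapt per the methods. The tables list 37713 features, of which 37072 transcripts were matched to a gene symbol through RefSeq and 294 were kept as they were.

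Here estimated counts were summed by symbol, rounded, scaled by TMM to normalized CPM and tested in edgeR 4.0.16 (R 4.3.3) by the quasi-likelihood test after filterByExpr, with Benjamini-Hochberg adjustment over all features. The 4 RNA-seq libraries were fitted alone, and the 8 RIP-seq libraries together. Standard errors are the log2 fold change over the square root of F. The thresholds were an adjusted p under 0.05 and, in the study, a log2 fold change of 1. Alternatives were DESeq2 1.42.0, its size factors, limma 3.58.1 on log2(TPM + 1), 2 other filters, a length trend, a replicate block and leaving out each library. Coordinates are from GRCm38.p6 and primer and siRNA letters from the study's list.

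Named genes were the 9 members, called genes of the other lists (up to 6 per list), 1 correlated gene per member and Lsm1, with Atrx, Hnrnpa2b1 and the genes of these lists called in the pull-down added after their values were seen. The members and lists were chosen with earlier results of these data known. FLAG and control inputs and pull-downs with the same number were taken as pairs, since the methods draw both from 1 lysate (correlation of deviations 0.14 and 0.11). The replicate correlation was -0.17 between Lsm1_KD and Ctrl and 0.10 between the inputs, which share only a number.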

Additional observations from a re-analysis of the deposited data

How the results depend on the processing

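Of 646 recomputed values of the 9 genes, 569 kept their direction and their side of the threshold, 26 passed it anew, 17 lost it and 34 changed sign, none of the last past the threshold. In Lsm1_KD over Ctrl, 2 members were called in edgeR, 1 in DESeq2, 0 in limma on log2(TPM + 1), 1 to 2 without 1 library and 0 of 16 as single transcripts. In FLAG IP over FLAG Input 1 was called in edgeR, 3 in DESeq2, 4 in limma, 5 with the length trend taken out and 0 to 8 without 1 library, and relative to the control pull-down 0 to 5 without 1 library. Of the other genes of the pathway, 2 were called in the knockdown and 1 to 2 without 1 library. The cause was not tested. Limma on log2(TPM + 1) moved the median of all features in the knockdown to -0.23.

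Values that changed sign were small or rest on few counts. In the knockdown, Ehmt1 ran from -0.21 to 0.11 and Trim28 from -0.15 to 0.68 without 1 library, and Trim28 was at -0.01 in limma. In FLAG Input over Ctrl Input, Suv39h2 was at 0.03 with the size factors of DESeq2, in DESeq2 and with at least 10 counts in every library, at 0.06 without a filter and at -0.03 to 0.10 without 1 library, Cbx5 was at -0.03 in limma and -0.06 with the length trend taken out, and without 1 library Suv39h1 ran from -0.04 to 0.42, Setdb1 from -0.10 to 0.03 and Cbx1 from -0.22 to 0.12. In Ctrl IP over Ctrl Input, Suv39h1 was at -0.02 with both uses of DESeq2 size factors, -0.49 in limma, -0.43 with the length trend taken out and -0.22 to 0.24 without 1 library, Ehmt2 at -0.15 and -0.28 in limma and with the trend taken out, and Cbx3 at -0.04 in limma. In FLAG IP over FLAG Input, Ehmt2 was at -0.33 with the trend taken out. Relative to the control, Ehmt1 was at 0.06 and Cbx5 at 0.29 in limma, Cbx5 at 0.07 with at least 10 counts in every library and Ehmt2 at -0.05 with the trend taken out. Ehmt2 could not be tested in the knockdown with at least 10 counts in every library or without Ctrl replicate 1.

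With the replicate number as a block, Cbx1 (log2 fold change 1.09, adjusted p = 0.052) and Cbx3 (1.69, adjusted p = 0.056) lost their calls in the knockdown, where all calls went from 1248 to 643, and Ehmt2 was at 0.85. The numbers there are not shown to pair the libraries. With the numbers crossed, an alternative chosen after seeing the data, all calls were 2616, members called 3 and other pathway genes called 6, and Ehmt2 was at 0.58. The member called only with the numbers crossed was Suv39h2, lower in Lsm1_KD (log2 fold change -0.54, adjusted p = 0.029 in edgeR). The replicate block without crossing changed no call of a member other than Cbx1 and Cbx3. Where a library is left out, the lone library of its group is assumed to vary like the others. Depth limits Ehmt2, with 0 to 39 counts in the RNA-seq.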
